A study of Mus musculus with 14 samples.

Results

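The 10 p53 target genes Cdkn1a, Mdm2, Pmaip1, Bbc3, Eda2r, Sesn2, Trp53inp1, Ccng1, Zmat3 and Fas were followed through MMP3 treatment and a range of plating densities in a mouse mammary epithelial line. They were taken from a fixed list and found as the probe sets that the array's annotation assigns to 1 of these genes alone, which gave 17 probe sets for 10 of the 18193 genes named on the array. Of the 17, 16 varied enough over the arrays to be tested. The transcription factor p53 is held low in unstressed cells and is stabilised by DNA damage and other stresses. It then switches on genes that stop the cell cycle, prepare cells for death, adjust metabolism and, through Mdm2, bring p53 itself down again. Several of these genes also answer to other signals, and their RNA is not by itself a measure of p53 activity.

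SCp2 cells, which the labels give as a mammary gland line, were grown in medium with fetal calf serum and treated for 3 days in 35 mm dishes with MMP-3, a secreted matrix metalloproteinase, or kept as controls. Experiment A held MMP3 and control dishes plated at 50K, 100K and 250K cells, as the labels write the densities, and experiment B held MMP3 and control dishes at 25K, 50K, 100K and 250K. RNA of each dish went on 1 Affymetrix mouse expression array, 14 in all, so that an agent had 3 arrays in A and 4 in B, each at another density. Nothing in the labels says whether dishes of an experiment came from separate cultures. No density was repeated under an agent within an experiment. The p-values within an experiment thus rest on how far dishes lay from a straight line in log2 density for each agent. Dish-to-dish spread, which may be technical, and curvature with density cannot be told apart there. Over both experiments they also rest on differences between the experiments beyond a constant shift. The deposited values are on a log2 scale, and every probe set is centred so that its median over the 14 arrays is 0. They give differences between arrays and no level, so the labelled cell type could not be checked against its markers, and fewer expressing cells could not be told from less RNA per cell.

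Sequence at the gene starts is shown for the 3 scanned members whose promoter window holds the p53 consensus decamer, the unit from which p53 response elements are built. Windows of 300 bases, from 250 before to 50 after a gene start, were taken from RefSeq (GRCm38.p6) for 7 of the 10 members: Cdkn1a, Mdm2, Ccng1, Sesn2, Bbc3, Fas and Eda2r. The decamer reads the same on both strands, and it was present in 3 of their 10 windows, against 8.36% of all 32851 windows. Pmaip1, Trp53inp1 and Zmat3 were not scanned. Member windows on a skipped chromosome were not counted, so a member left out may still have a window. The share over all windows includes that chromosome, so the 2 shares do not cover like sets. Capitals mark the decamers. The Cdkn1a window lies at chr17:29090729-29091028 on the plus strand, that of Mdm2 at chr10:117710709-117711008 on the minus strand and that of Ccng1 at chr11:40755237-40755536 on the minus strand.
Cdkn1a: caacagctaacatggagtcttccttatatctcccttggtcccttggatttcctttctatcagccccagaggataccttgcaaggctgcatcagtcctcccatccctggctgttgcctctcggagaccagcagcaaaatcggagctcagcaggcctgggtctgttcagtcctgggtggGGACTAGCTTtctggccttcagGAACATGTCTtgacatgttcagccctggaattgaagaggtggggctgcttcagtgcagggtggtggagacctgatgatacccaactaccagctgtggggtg
Mdm2: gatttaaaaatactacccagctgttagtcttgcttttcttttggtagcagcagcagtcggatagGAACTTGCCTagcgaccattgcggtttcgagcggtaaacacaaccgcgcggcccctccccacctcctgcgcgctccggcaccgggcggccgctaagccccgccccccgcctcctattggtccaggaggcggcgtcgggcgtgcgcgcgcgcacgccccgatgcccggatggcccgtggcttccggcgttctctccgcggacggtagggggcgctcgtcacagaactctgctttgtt
Ccng1: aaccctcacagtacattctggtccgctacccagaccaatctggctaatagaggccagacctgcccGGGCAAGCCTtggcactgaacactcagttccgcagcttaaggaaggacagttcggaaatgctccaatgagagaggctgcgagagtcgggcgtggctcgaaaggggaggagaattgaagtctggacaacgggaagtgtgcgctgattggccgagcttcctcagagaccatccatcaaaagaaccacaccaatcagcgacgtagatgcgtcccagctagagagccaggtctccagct
The printed Cdkn1a window holds 2 decamers separated by 12 bases, while the window at the gene's other listed start holds none. Only exact matches were marked. The 10 bases directly after the second decamer depart from the consensus at their first base alone. Which of these stretches form a response element was not tested. A pair of decamers with at most 13 bases between them was present in 24 of all windows (0.0731%). These matches describe the sequence and are not evidence of binding in these cells.

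Arrays that stood apart bear on the results for experiment B. The array labelled MMP3 100K of B had an SD of 0.87 over all probe sets, against 0.23 to 0.41 on the other 13 arrays, and the highest value of the 14 fell on it for 7 of the 16 tested member probe sets and for 28.5% of all tested probe sets. The actin control, read as its 3′ minus its 5′ probe set, was 0.65 there, against -0.34 to 0.19 on the others, and the part of RNA quality in the highs of this array was not tested. Ifit1, an interferon-induced gene, ran from 2.83 to 4.21 in the MMP3 dishes of A, against -2.98 to -2.91 in its control dishes. The MMP3 25K and MMP3 100K arrays of B gave -2.83 and -2.97 for Ifit1, against 3.71 and 4.26 for the control 50K and control 250K arrays. Thus 4 of the 8 arrays of B went against their label in this gene. The control 25K and control 100K arrays gave -2.93 and -2.93, and the MMP3 50K and MMP3 250K arrays 4.53 and 5.15. In B Ifit1 was therefore low at 25K and 100K and high at 50K and 250K under both labels. No pair of B set an Ifit1-high dish against an Ifit1-low one. The mean of 9 interferon and IRF genes split the same way, at -1.0 and -0.92 on MMP3 25K and MMP3 100K, against 1.75 and 2.08 on control 50K and control 250K, and so did that of 4 epithelial markers, at -0.38 and -0.56, against 0.77 and 0.66. Whether the 4 arrays that went against their label carry the right one cannot be settled from the files. Each MMP3 effect in B, or over both experiments, therefore holds only as far as the labels do. The 18S control also lay higher with MMP3 in A, at 0.92 to 1.15 against 0.45 to 0.83 in the controls, and its part in the results of A was not tested.

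**Figure D1:**
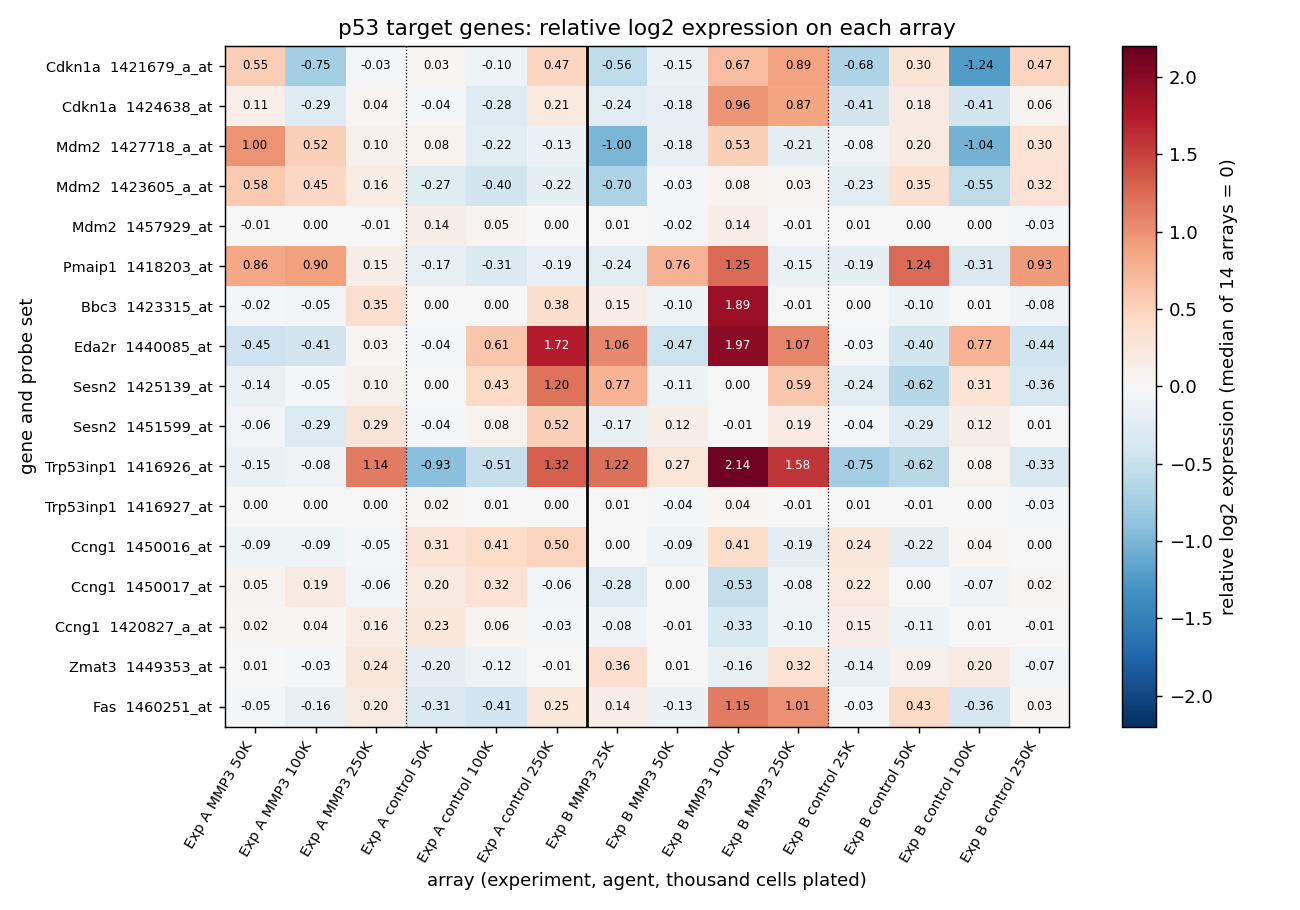
Relative log2 expression of the 17 member probe sets (rows) on the 14 arrays (columns, by experiment, agent and plating density), with red above and blue below the median of the 14 arrays. Trp53inp1 and Eda2r span the widest range, and Bbc3 is high on the array labelled MMP3 100K of experiment B alone, at 1.89.

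In experiment A, MMP3 dishes had higher Mdm2 and Pmaip1 and lower Eda2r, Sesn2 and Ccng1 than control dishes. These were 6 of 16 tested probe sets (37.5%) from 5 genes (limma, adjusted p under 0.05 over 27022 probe sets), 3 higher and 3 lower. The same fit called 19.9% of all tested probe sets, 11% higher and 8.91% lower. MMP3 dishes lay above the control dishes without overlap on 3 member probe sets (16.7% of all). They lay below them on 2 (25.2% of all), Mdm2 1457929_at and Ccng1 1450016_at. The members thus moved both ways, and their median effect was -0.02 on the log2 scale, against -0.03 over all tested probe sets. At an unadjusted p under 0.05 the member probe sets stood at 37.5% and all probe sets at 38.1%. None of the 6 calls was kept with any of the 6 arrays of A left out, where 0 of all 27022 probe sets passed either. With density as a factor only Ccng1 passed, 1 of 16 member probe sets, against 3145 of all 27022.

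Mdm2, the ubiquitin ligase that binds p53 and marks it for degradation, had 3 probe sets. On 1427718_a_at the MMP3 dishes of A had 1.0, 0.52 and 0.10 at 50K, 100K and 250K, against 0.08, -0.22 and -0.13 in the control dishes. The groups did not overlap, the MMP3 value was smallest at 250K, and the difference was 0.63 (SE 0.09, adjusted p = 0.0349, limma; higher in 3 of 3 pairs). On 1423605_a_at the MMP3 dishes had 0.58, 0.45 and 0.16, against -0.27, -0.40 and -0.22 in the control dishes, a difference of 0.69 (SE 0.07, adjusted p = 0.0229, limma; 3 of 3 pairs). Without the filter on SD the adjusted p was 0.0903 for the first probe set and 0.0572 for the second. The third, 1457929_at, was nearly flat and stayed between -0.03 and 0.14 on all 14 arrays. In A its MMP3 dishes lay below the control dishes without overlap, by -0.07 (SE 0.04, adjusted p = 0.338, limma), which did not pass. This probe set did not follow the other 2 (r = 0.12 and -0.25 over the 14 arrays), which followed each other (r = 0.88).

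In experiment B the order of the agents in Mdm2 was not the same. On 1427718_a_at the MMP3 dishes had -1.0, -0.18, 0.53 and -0.21 at 25K, 50K, 100K and 250K, against -0.08, 0.20, -1.04 and 0.30 in the control dishes. MMP3 was higher only in the pair at 100K, and the difference over the 4 pairs was -0.06 (SE 0.43, adjusted p = 0.961, limma). Across both experiments with experiment as a block it was 0.24 (SE 0.29, adjusted p = 0.785, limma).

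Cdkn1a encodes p21, an inhibitor of cyclin-dependent kinases and a main arm of arrest by p53. Its probe set 1421679_a_at had 0.55, -0.75 and -0.03 in the MMP3 dishes of A at 50K, 100K and 250K, against 0.03, -0.10 and 0.47 in the control dishes. The groups overlapped, with a difference of -0.21 (SE 0.40, adjusted p = 0.731, limma), which ran from -1.02 without MMP3 250K to 0.14 without MMP3 100K. In B it had -0.56, -0.15, 0.67 and 0.89 in the MMP3 dishes at 25K, 50K, 100K and 250K, against -0.68, 0.30, -1.24 and 0.47 in the control dishes. The 2 highest values of B were on the MMP3 arrays at 100K and 250K, and the difference was 0.50 (SE 0.42, adjusted p = 0.706, limma). The second probe set, 1424638_at, gave 0.96 and 0.87 on those 2 arrays, where no other array passed 0.21, and its effect in B was 0.50 as well (SE 0.24, adjusted p = 0.555, limma). Without MMP3 100K of B the effects were 0.41 and 0.34, and neither passed. With single arrays of B left out the effect on 1421679_a_at ran from 0.14 (without control 100K) to 0.91 (without control 250K).

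Ccng1, cyclin G1, which recruits a phosphatase to Mdm2, was lower with MMP3 in A on 1 of its 3 probe sets. On 1450016_at the MMP3 dishes had -0.09, -0.09 and -0.05 at 50K, 100K and 250K, against 0.31, 0.41 and 0.50 in the control dishes. Each group was tight and they did not overlap; the difference was -0.48 (SE 0.04, adjusted p = 0.0197, limma; lower in 3 of 3 pairs). The other probe sets, 1450017_at and 1420827_a_at, differed by -0.09 (SE 0.11) and -0.01 (SE 0.05), neither of which passed. These 2 correlated with each other over the 14 arrays at r = 0.79, and each with 1450016_at at r = 0.00 and 0.03 (0.41 and 0.44 without MMP3 100K of B). On MMP3 100K of B they stood at -0.53 and -0.33, the lowest of the 14 arrays, while 1450016_at stood at 0.41 there. The call for Ccng1 therefore belongs to a single probe set, and which transcripts each one reads is not given in the sources used here.

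**Figure D2:**
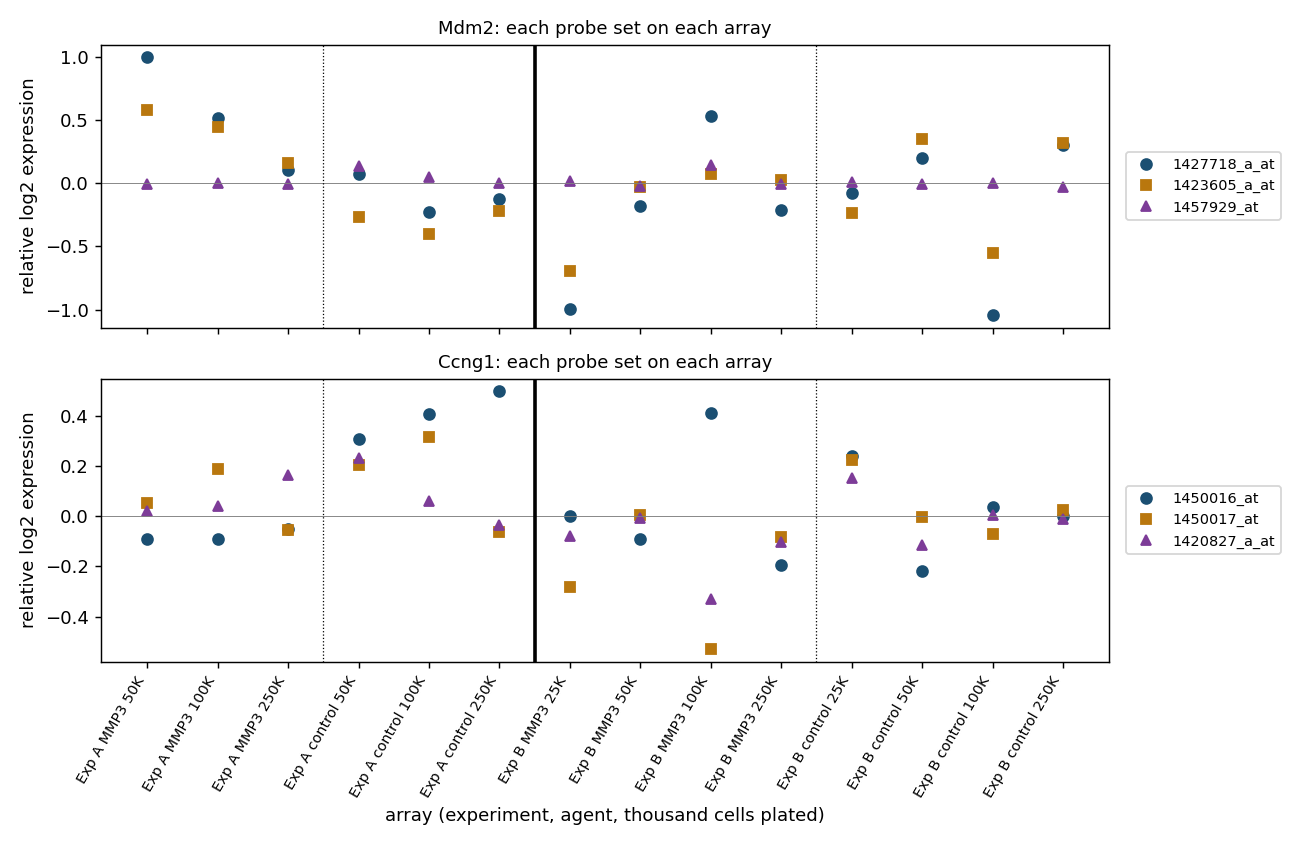
Relative log2 expression of each probe set of Mdm2 (top) and Ccng1 (bottom) on each of the 14 arrays, MMP3 before control within each experiment. Mdm2 1427718_a_at and 1423605_a_at move together and 1457929_at stays near 0; on MMP3 100K of B 1 Ccng1 probe set is at 0.41 and the others are at -0.53 and -0.33.

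Among the members linked to cell death, Pmaip1 (Noxa) and Bbc3 (Puma) encode small proteins that bind and block survival proteins of the BCL2 family. Pmaip1 (1418203_at) had 0.86, 0.90 and 0.15 in the MMP3 dishes of A at 50K, 100K and 250K, against -0.17, -0.31 and -0.19 in the control dishes. The groups did not overlap, and the difference was 0.86 (SE 0.14, adjusted p = 0.0402, limma) and 1.81-fold on average, with MMP3 higher by 1.03, 1.21 and 0.34 in the 3 pairs. Without the filter on SD the adjusted p was 0.112, and with quantile normalization it was 0.0697. In B Pmaip1 had -0.24, 0.76, 1.25 and -0.15 in the MMP3 dishes at 25K, 50K, 100K and 250K, against -0.19, 1.24, -0.31 and 0.93 in the control dishes. High and low dishes were found under both labels there, and the difference was -0.01 (SE 0.55, adjusted p = 0.996, limma).

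Bbc3 (1423315_at) stayed between -0.10 and 0.38 on 13 of the 14 arrays. It was 1.89 on MMP3 100K of B, and in A it had its 2 highest values at 250K, 0.35 with MMP3 and 0.38 in the control. Its effect was -0.04 in A (SE 0.10, adjusted p = 0.807, limma). In B it was 0.53 (SE 0.50, adjusted p = 0.736, limma), and 0.05 without MMP3 100K (SE 0.09, adjusted p = 0.851, limma). The value in B thus rested on 1 array.

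Fas (1460251_at), a death receptor of the cell surface, had -0.05, -0.16 and 0.20 in the MMP3 dishes of A at 50K, 100K and 250K, against -0.31, -0.41 and 0.25 in the control dishes. The groups overlapped, with a difference of 0.16 (SE 0.15, adjusted p = 0.518, limma). In B Fas had 0.14, -0.13, 1.15 and 1.01 in the MMP3 dishes at 25K to 250K, against -0.03, 0.43, -0.36 and 0.03 in the control dishes. As for Cdkn1a, the MMP3 arrays at 100K and 250K were the highest of the 14, and the difference did not pass (0.53, SE 0.28, adjusted p = 0.580, limma).

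Eda2r (1440085_at), a receptor for ectodysplasin A2, showed the largest difference of the members in A, and in the other direction from Mdm2 and Pmaip1. The MMP3 dishes had -0.45, -0.41 and 0.03 at 50K, 100K and 250K, against -0.04, 0.61 and 1.72 in the control dishes. MMP3 was lower in 3 of 3 pairs by -0.41, -1.02 and -1.69, although the groups overlapped because the controls differed so much between densities. The fitted difference was -1.04 (SE 0.08, adjusted p = 0.0172, limma). With density as a factor, which leaves the widening of the pairs in the residual, the adjusted p was 0.125. In B the MMP3 dishes had 1.06, -0.48, 1.97 and 1.07 at 25K to 250K, against -0.03, -0.40, 0.77 and -0.44 in the control dishes, so that MMP3 was higher in 3 of 4 pairs. The difference was 0.93 in B (SE 0.59, adjusted p = 0.634, limma), and 0.60 without MMP3 100K.

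The remaining members answer to stress and metabolism. Sesn2, a sestrin that restrains the growth kinase mTOR and is also induced by the factor ATF4, had 2 probe sets. On 1425139_at the MMP3 dishes of A had -0.14, -0.05 and 0.10 at 50K, 100K and 250K, against 0.00, 0.43 and 1.20 in the control dishes. The pairs widened with density as for Eda2r, at -0.13, -0.48 and -1.10, and the difference was -0.57 (SE 0.05, adjusted p = 0.0198, limma). With density as a factor the adjusted p was 0.208. On 1451599_at it was -0.21 (SE 0.15, adjusted p = 0.391, limma), lower in 3 of 3 pairs. In B 1425139_at had 0.77, -0.11, 0.00 and 0.59 in the MMP3 dishes at 25K to 250K, against -0.24, -0.62, 0.31 and -0.36 in the control dishes, a difference of 0.54 (SE 0.31, adjusted p = 0.604, limma).

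Trp53inp1, a stress protein that promotes the activating phosphorylation of p53 and takes part in autophagy, spanned the widest range of the members. On 1416926_at the MMP3 dishes of B had 1.22, 0.27, 2.14 and 1.58 at 25K, 50K, 100K and 250K, against -0.75, -0.62, 0.08 and -0.33 in the control dishes. All MMP3 dishes lay above all control dishes, as for 4.43% of all tested probe sets in B, while no member lay below without overlap (4.83% of all). The difference was 1.71 (SE 0.40, unadjusted p = 0.00679, adjusted p = 0.340, limma), a 3.26-fold difference that did not pass over all probe sets. Without MMP3 100K it was 1.45 (SE 0.36, adjusted p = 0.193, limma). In A the MMP3 dishes had -0.15, -0.08 and 1.14 at 50K, 100K and 250K, against -0.93, -0.51 and 1.32 in the control dishes. There the groups overlapped, MMP3 was higher in 2 of 3 pairs, and the difference was 0.34 (SE 0.27, adjusted p = 0.425, limma), which ran from -0.03 without MMP3 250K to 0.77 without control 250K.

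Over both experiments with experiment as a block, Trp53inp1 was 1.12 higher with MMP3 (SE 0.37, adjusted p = 0.151, limma), in 6 of 7 pairs, and it did not pass. The exception was the pair at 250K in A. Without the control array of that pair the difference was 1.41 (adjusted p = 0.0349, limma), the only member call under any array left out of that fit. That array was 1 of 14 left out in turn, and it belongs to the only pair that went the other way. Without it the count over all probe sets rose as well, as given below. Its second probe set, 1416927_at, varied too little to be tested, with an SD of 0.018 and values from -0.04 to 0.04.

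Zmat3 (1449353_at), an RNA-binding zinc finger protein, kept to a narrow range on the 14 arrays, from -0.20 to 0.36. It had 0.01, -0.03 and 0.24 in the MMP3 dishes of A at 50K, 100K and 250K, against -0.20, -0.12 and -0.01 in the control dishes. MMP3 was higher in 3 of 3 pairs with overlapping groups, and the difference of 0.18 did not pass (SE 0.07, adjusted p = 0.150, limma). In B its values ran from -0.16 to 0.36 with MMP3 and from -0.14 to 0.20 in the controls (difference 0.11, SE 0.17, adjusted p = 0.815, limma).

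**Figure D3:**
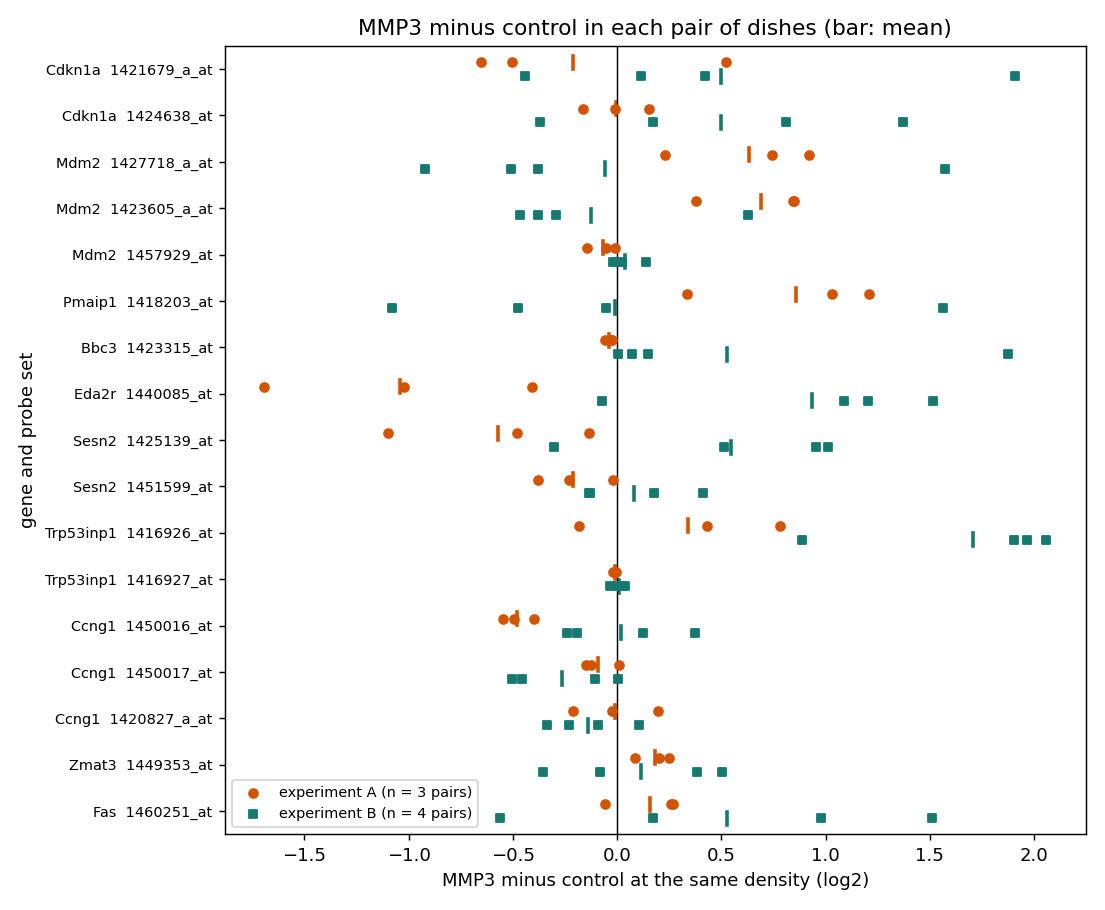
MMP3 minus control at the same density (log2, x axis) for each member probe set, with 1 point for each pair of dishes, 3 in experiment A and 4 in experiment B, and a bar at the mean. Mdm2 1427718_a_at and 1423605_a_at and Pmaip1 lie right of 0 in all pairs of A and on both sides in B, Mdm2 1457929_at lies just left of 0 in A, Eda2r and Sesn2 lie left of 0 in A, and Trp53inp1 1416926_at lies right of 0 in all pairs of B.

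Taken by experiment as labelled, no member passed for MMP3 in B (limma, 0 of 16), nor did any of the 27022 probe sets (0%). At an unadjusted p under 0.05 there was 1 member probe set, of Trp53inp1, which is 6.25% of the member probe sets against 10.6% of all. With single arrays of B left out, several of its differences turned direction: Mdm2 (1427718_a_at) ran from -0.37 (without control 100K) to 0.38 (without MMP3 250K), Pmaip1 from -0.30 (without MMP3 100K) to 0.61 (without MMP3 250K) and Zmat3 from -0.10 (without MMP3 250K) to 0.21 (without MMP3 100K). In A the difference in Fas ran from -0.01 (without MMP3 250K) to 0.42 (without control 250K), and that in Bbc3 from -0.19 (without MMP3 250K) to 0.09 (without control 250K). Over both experiments 0 of 16 passed, against 2.18% of all probe sets (0.999% higher and 1.18% lower), and 1 had an unadjusted p under 0.05, against 16.1% of all. Whether the MMP3 effect differed between A and B was tested directly on the 12 arrays at the shared densities. No member passed (limma, 0 of 16; 3 at an unadjusted p under 0.05, 18.8%, against 16.6% of all probe sets, of which none passed either). The largest such difference, A minus B, was -1.92 for Eda2r (SE 0.73, adjusted p = 0.279, limma).

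Plating density was the second variable of the design. In the control dishes of A, Trp53inp1, Eda2r and Sesn2 (1425139_at) were each higher at 100K than at 50K and higher again at 250K. The change from 50K to 250K was 1.28 in MMP3 dishes and 2.25 in control dishes for Trp53inp1, 0.48 and 1.77 for Eda2r, and 0.24 and 1.20 for Sesn2. Averaged over the agents, the slope in A was 0.78 per doubling of plated cells for Trp53inp1 (SE 0.14), 0.49 for Eda2r (SE 0.04) and 0.31 for Sesn2 (SE 0.03). Their adjusted p lay at 0.119, 0.115 and 0.115 (limma), so none passed. In that fit 0 of 16 member probe sets and 0% of all probe sets passed, while 5 member probe sets (31.2%) and 27% of all had an unadjusted p under 0.05.

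In B the same change from 50K to 250K was 1.30 in MMP3 dishes and 0.29 in control dishes for Trp53inp1, 1.55 and -0.04 for Eda2r, and 0.70 and 0.26 for Sesn2. In the controls, the highest values of A came from the 1 array at 250K and those of B from the 1 array at 100K. For Cdkn1a (1421679_a_at) the change was 1.04 in MMP3 dishes and 0.17 in control dishes of B, against -0.58 and 0.45 in A. The density slope over both experiments passed for no member (limma, 0 of 16; 2 at an unadjusted p under 0.05, 12.5%, against 10.6% of all), and neither did the change of the MMP3 effect with density (0 of 16, none at an unadjusted p under 0.05, against 2.15% of all). In B alone the slope gave 0 of 16 with none at an unadjusted p under 0.05, against 3.59% of all. No probe set of the table passed in these fits.

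**Figure D4:**
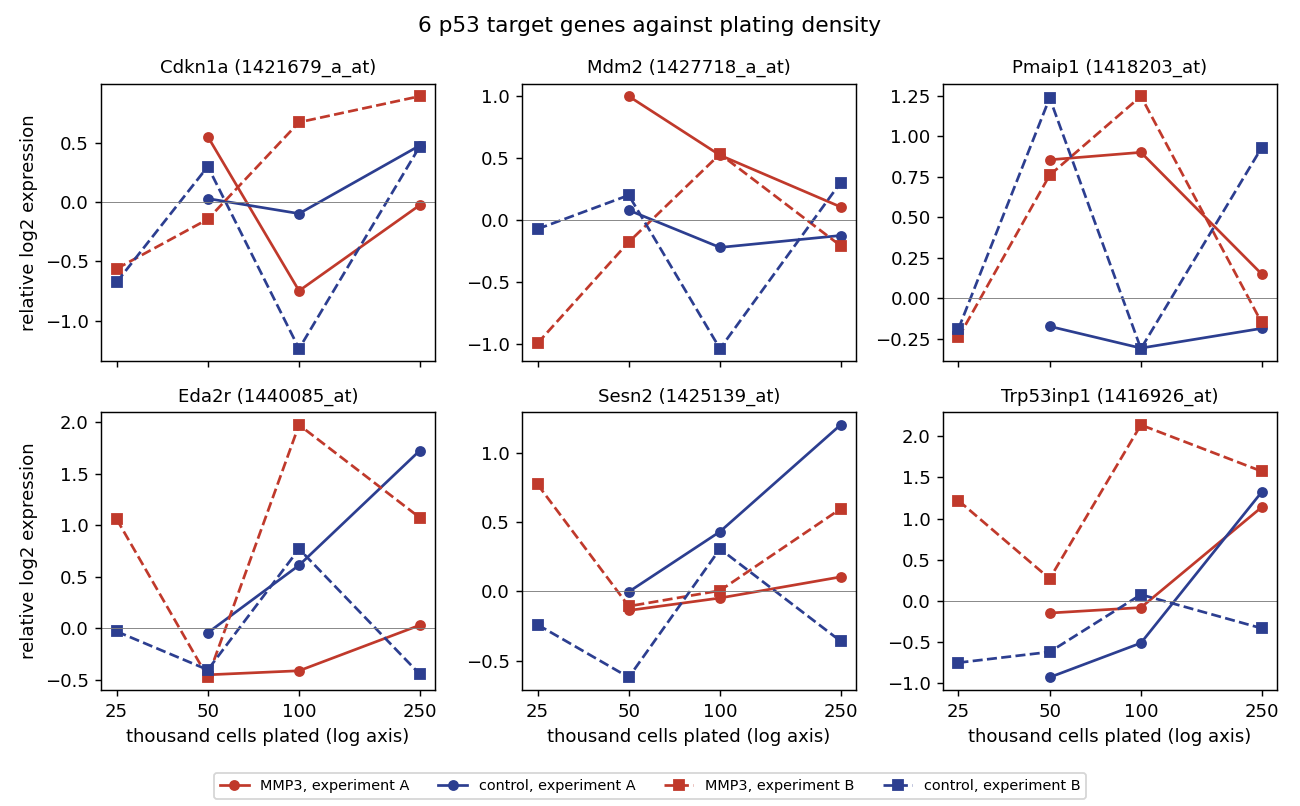
Relative log2 expression of 6 members against plating density (log axis, K cells), with MMP3 in red and control in blue, experiment A as circles with solid lines and experiment B as squares with dashed lines, 1 array a point. In A the control lines of Eda2r, Sesn2 and Trp53inp1 climb to 1.72, 1.20 and 1.32 at 250K; in B the Trp53inp1 MMP3 line lies above the control line at all 4 densities.

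The members did not move as 1 group over the arrays. With each gene at its most variable probe set, the 45 pairs of members had a median Pearson r of 0.21 over the 14 arrays, and 32 of 45 were above 0. These correlations share arrays and the deviating array and are descriptions only. The closest pairs were Eda2r with Trp53inp1 (r = 0.75), Trp53inp1 with Fas (0.74), Eda2r with Sesn2 (0.74) and Mdm2 with Pmaip1 (0.70). Without MMP3 100K of B the median was 0.17, with 28 of 45 above 0. Eda2r and Sesn2 then stood at 0.94, Trp53inp1 at 0.78 with Zmat3, 0.72 with Sesn2, 0.65 with Eda2r and 0.62 with Fas, and Mdm2 and Pmaip1 at 0.67. Pmaip1 ran against Eda2r (-0.76) and Sesn2 (-0.71) on those arrays. Outside the members, the genes most like Cdkn1a among 11802 by Pearson r over the 14 arrays were Nfu1 (0.82), Pef1 (0.78), Arf5 (0.77), Ube2r2 (0.76) and Rbm4b (0.74).

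Single markers of other cell types moved with some of these values, while the lists as a whole did not. Among macrophage markers 3 of 6 varied enough to be tested. Cd68 was 4.61 on MMP3 100K of B, 1.82 on MMP3 250K of B and 1.84 on control 250K of A, against -0.21 to 0.87 on the others, while Csf1r and Cd14 were 0.03 and -0.17 on the first of these arrays. The list mean there was 1.49, against -0.06 to 0.61 on the other arrays, and rested on Cd68. Among fibroblast markers 2 of 7 varied enough. Pdgfra was 1.67, 1.24 and 1.5 on MMP3 25K, 100K and 250K of B and 2.15 on control 250K of A, and Dcn was 0.96 on MMP3 250K of B and between -0.02 and 0.02 elsewhere. The mean of the fibroblast pair ran from -0.65 to 1.23. Trp53inp1 and Eda2r were high on these arrays too, and the part of these markers in that was not tested. No endothelial marker (0 of 4) and 1 of 4 adipocyte markers (Fabp4) varied enough to be tested, and no marker of these 4 lists passed for MMP3 in A. Of the epithelial markers 4 of 7 varied enough, and Cldn4 (2.49), Epcam (1.18) and Cdh1 (0.89) rose with MMP3 in A, while Esrp1 differed by -0.08 and did not pass.

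Other genes of the pathway were read from lists, each gene at its most variable probe set. Read that way, 13.8% of 11812 genes were called higher with MMP3 in A and 9.67% lower, which is the background for the counts that follow. Among regulators of p53, 2 of 18 tested rose (11.1%) and 4 fell (22.2%) with MMP3 in A. Their median was -0.21, against -0.02 over the 11812 genes. In B none of the 18 passed (median -0.07). The p53 relative Trp63, which marks basal epithelial cells, fell by 1.44 (SE 0.18), Atr, a kinase of the replication checkpoint, fell by 1.43 (SE 0.10), and Prkdc, a kinase of DNA end joining, fell by 0.64. Hipk2, a kinase that phosphorylates p53, rose by 1.06. Mdm4, the partner of Mdm2, differed by -0.29 (SE 0.15, adjusted p = 0.254, limma). In B the values were 0.72 for Trp63, -0.18 for Atr, 0.30 for Prkdc, -0.94 for Hipk2 and 0.73 for Mdm4. Over both experiments 2 of the 18 regulators were called lower (11.1%), Atm (-0.52) and Chek1 (-1.09), and none higher. The same fit called 1.18% of all probe sets lower and 0.999% higher. Atm and Chek1 were also lower in A and in B taken alone, without passing. With several of the arrays left out in turn, the fit over both experiments called no probe set at all.

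Of other p53 targets for growth arrest and repair, 5 of 22 tested rose (22.7%) and 2 fell (9.09%) in A (median 0.16). The polo-like kinases Plk3 (2.18) and Plk2 (1.69) and the checkpoint protein gene Sfn (0.75) rose, while Sesn1, the sestrin next to Sesn2, fell by 1.15. In B these 4 had effects of -0.98, -0.72, -1.36 and 1.24 in that order, none past the threshold. A list of other targets, drawn up for cell death, also held genes of other functions, such as Tap1 and Dcxr. Its shares are therefore not those of death genes alone. In A 8 of its 21 tested genes rose (38.1%) and 3 fell (14.3%), with a median of 0.59. The rises were led by Thbs1 (3.13), the autophagy gene Dram1 (1.89) and Trp53inp2 (1.85), and Igfbp3 was lower, at -2.26. In B the effects of these 4 were -2.32, -0.63, 0.59 and -0.26, and none passed. No gene of these lists passed in B. Over both experiments Cdc42bpg of the growth arrest list (0.61) and Cd82 (1.20) and Tap1 (0.83) of the other were called higher, and none lower. That was 4.55% of the 22 and 9.52% of the 21 tested genes, against 0.999% of all probe sets. Each was also higher in A and in B taken alone.

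Of the genes that p21 is known to repress through the DREAM complex, 8 of 23 tested fell with MMP3 in A (34.8%), none rose past the threshold and 15 did not pass. Their median was -0.56, and E2f1 alone had a positive value (0.51). In B the median was -0.31 and none passed. The largest falls in A were in Aurkb (-1.37), Cenpf (-1.26), Cdc20 (-0.98) and Ccnb2 (-0.98), whose values in B were -0.17, -0.21, -0.05 and 0.03 in that order. Cdkn1a itself did not pass in A. The mean of the 23 genes was lowest on MMP3 250K of B, at -1.42, where Cdkn1a (1421679_a_at) had its highest value of 0.89. On MMP3 100K of B, where Cdkn1a had 0.67, the mean was 0.22.

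Genes of 2 other routes that can induce members were also read. Of ATF4 and CHOP genes 6 of 10 fell (60%) and 2 rose (20%) in A, with Trib3 (-2.17), Vldlr (-1.94), Ddit3 (-1.51) and Ddit4 (-1.32) the largest falls. In B these 4 had 0.01, 0.58, 1.48 and 0.59 in that order, none of the 10 passed and the median was 0.00. Sesn2, induced by ATF4, was lower in the same dishes, and Pmaip1, which ATF4 and CHOP can also induce, was higher. Of interferon and IRF genes 8 of 9 rose (88.9%) in A, with Usp18 (6.63), Ifit1 (6.61), Rsad2 (3.92) and Ifit3 (3.41) in the lead. In B none of the 9 passed (median 0.44), and these 4 had 0.59, 0.44, -0.46 and 0.31. In B Pmaip1 was 0.76 on MMP3 50K and 1.24 and 0.93 on control 50K and control 250K, where Ifit1 was 4.53, 3.71 and 4.26. It was 1.25 on MMP3 100K, where Ifit1 was -2.97, and -0.15 on MMP3 250K, where Ifit1 was 5.15. The part of either route in the members' values was not tested.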

How the data were processed

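The deposited table holds log2 expression values; RMA is the method the authors named, per the submitters' processing notes, with no version. The log base and the centring on the median of 14 arrays are not stated and were read from the values (largest row median 5e-07). Nothing further on the processing is given here. Of 45037 probe sets that are not controls, 34945 had 1 gene symbol, 932 several and 9160 none, and symbols were updated through the Entrez identifier. Probe sets were tested when their SD over the arrays was at or above the 40th percentile (0.049), which left 27022. This filter favours variable probe sets.

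Tests used limma 3.58.1 in R 4.3.3 with Benjamini-Hochberg adjustment over all tested probe sets (threshold 0.05). The model had agent, centred log2 density and their product, with experiment as a block over 14 arrays. Residual degrees of freedom were 2 in A, 4 in B and 9 over both. The test of the difference between the experiments had another model, on the 12 arrays at the shared densities. It held agent, experiment, their product and density as a factor, with 6 residual degrees of freedom. The experiment letters are given by the labels; differences between the experiments correlated between conditions at 0.05 on average (-0.65 to 0.64). Simulated data held 27022 probe sets with 200 of them changed, far fewer than the 5379 that the fit to A called in the data. On these the fit to A recovered 41% of changes of 1 on the log2 scale and 72% of changes of 2. The fit to B recovered 22% and 54%. These shares hold for that number of changed probe sets only. The members, lists and tests were chosen with earlier results of these data known. All member probe sets are named. From each of 11 lists (143 genes, 113 tested) up to 4 passing genes with the largest effect in A are named. The regulators and other targets called over both experiments, Mdm4 and the 5 genes most like Cdkn1a are named too. A further 10 listed genes were not analysed here. The number of arrays limits the precision. Alternatives covered the filter, 1 probe set a gene, robust eBayes, quantile normalization, the blocks, density as a factor, the 25K arrays and each array left out.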

Additional observations from a re-analysis of the deposited data

Results flagged for a closer look

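In the MMP3 arrays of experiment B, 1 value of Bbc3 lay far from the other 3: 1.89 on MMP3 100K, with the nearest at 0.15. In the same arrays Mdm2 (1423605_a_at) was -0.70 on MMP3 25K, with the nearest at -0.03. A total of 32 groups of 4 arrays were examined in this way and 2 stood out, where chance gives about 1 in 20. Bbc3 also differed between the experiments in direction: MMP3 was below control in all 3 pairs of A (mean -0.037) and above it in all 4 pairs of B (mean 0.53). The differences in A, and 3 of the 4 in B, were smaller than 0.15 on the log2 scale, and the direct test of the difference between the experiments did not pass (-0.69, SE 0.63, adjusted p = 0.553, limma).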

How the results depend on the processing

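For the MMP3 effect in A, the count of member probe sets was 6 as reported, 3 without the filter on SD, 1 with density as a factor and 0 with any of the 6 arrays left out, which leaves 1 residual degree of freedom. It was 5 with 1 probe set a gene, 4 with quantile normalization and 6 with robust eBayes. Over all probe sets the count in A was 5379, against 1853 without the filter, 3145 with density as a factor, 2960 genes with 1 probe set a gene and 0 with any array left out. The count for MMP3 over both experiments was 0 members in each alternative except 1 (Trp53inp1) without the control 250K array of A, so with an array left out it ran from 0 to 1; it was 0 with no replicate block and 0 with each pair of dishes as a block. Over all probe sets that fit gave 589, against 279 without the filter, 325 genes, 1008 with quantile normalization, 3 with pairs as a block, 0 without the block, 0 without the 25K arrays and, with an array left out, 2322 without MMP3 100K of B, 1272 without control 50K of B, 1167 without control 250K of A, 545 without MMP3 100K of A and 0 without any of the other arrays. The difference between the experiments gave 65 probe sets without control 100K of B and 1 without control 100K of A, against 0 with all arrays. The cause of these shifts was not tested. The other 6 comparisons gave 0 members in each alternative. No member called in A changed sign in any alternative. A centred table holds no signal over background, so flat probe sets cannot be told from undetected ones.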
